A study of Mus musculus with 6 samples.

Results

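Liver cells take up bile acids, drugs and hormones from blood through transporters of the SLCO (OATP) and SLC22 families, and members of the ABC family pump substrates out into bile or back into blood. The mouse genes of these families were examined in livers with and without hepatocyte deletion of SHMT2. Genes were chosen by symbol, as Slco1 to Slco6, Slc22a and Abca to Abcg genes, if they had at least 10 counts in at least 3 of the 6 libraries. Of 90 genes with such a symbol in a table of 49671 genes, 63 met the count minimum: 8 SLCO, 15 SLC22 and 40 ABC genes. The other 27 had 0 to 25 counts in any library and are not described further.

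The samples were livers of 6 male C57BL/6J mice, 3 SHMT2 fl/fl (WT in the sample labels) and 3 SHMT2 HKO (labelled KO). Both genotypes carried floxed Shmt2 alleles, and the HKO mice also carried Albumin-Cre, whose promoter is active in hepatocytes, so that other liver cells keep the gene. All 6 mice were moved to the AMLN diet, a high-fat, fructose and cholesterol feed that induces fatty liver, at 4 weeks of age and stayed on it for 18 weeks, to an age of 22 weeks. No library came from chow-fed mice, and no Cre-only control was used here. It is not stated whether mice came from separate litters or cages, so p-values measure the spread between these livers.

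Uptake across the sinusoidal membrane of the hepatocyte brings bile acids, bilirubin conjugates, thyroid and steroid hormones, organic cations and carnitine into the cell. Efflux pumps of the canalicular membrane, among them the bile salt export pump, move bile acids, conjugates, phospholipid and sterols into bile, whereas other ABCC pumps return substrates to blood and are known to be induced when bile flow fails. Other ABC proteins work inside the cell, in mitochondria, lysosomes and peroxisomes, and those of the ABCE and ABCF groups do not cross membranes. The 63 genes were therefore read as 23 uptake genes, 16 efflux genes of the cell surface and 24 other ABC genes. Uptake genes were taken by family, as all SLCO and SLC22 members, including some whose substrates are less defined. The ABC genes were classed by known function.

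The upstream sequences of 4 genes and of the Abcg5-Abcg8 pair are shown because the largest increase (Slco1a1), the most abundant SLCO gene (Slco1b2), the bile salt pump (Abcb11) and the largest decrease (Abcc4) lie downstream of them. Each runs 5′ to 3′ on the gene's strand for the 250 bases before the RefSeq start in GRCm38.p6, and that of the pair covers the 109 bases between both starts on the plus strand. Capitals mark matches, on either strand, to HNF1 (GTTAAT), HNF4 (AAAGTCC), STAT5 (TTCNNNGAA), C/EBP (TTGCNNAA), GATA factor (AGATAA) and nuclear receptor (AGGTCA) letters. The Slco1a1 stretch is chr6:141946963-141947212 (minus strand), that of Slco1b2 chr6:141629268-141629517 (plus), that of Abcb11 chr2:69342617-69342866 (minus), that of Abcc4 chr14:118706220-118706469 (minus) and that of the pair chr17:84683012-84683120.
Slco1a1: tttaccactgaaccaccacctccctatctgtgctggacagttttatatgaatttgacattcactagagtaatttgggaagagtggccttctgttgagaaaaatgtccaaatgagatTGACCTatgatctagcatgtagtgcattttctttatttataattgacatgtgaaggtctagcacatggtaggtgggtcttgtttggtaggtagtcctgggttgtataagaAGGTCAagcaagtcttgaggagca
Slco1b2: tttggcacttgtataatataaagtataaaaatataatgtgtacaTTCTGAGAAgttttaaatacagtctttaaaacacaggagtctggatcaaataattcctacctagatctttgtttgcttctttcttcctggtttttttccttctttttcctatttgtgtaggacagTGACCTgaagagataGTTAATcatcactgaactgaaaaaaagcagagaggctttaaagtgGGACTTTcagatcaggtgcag
Abcb11: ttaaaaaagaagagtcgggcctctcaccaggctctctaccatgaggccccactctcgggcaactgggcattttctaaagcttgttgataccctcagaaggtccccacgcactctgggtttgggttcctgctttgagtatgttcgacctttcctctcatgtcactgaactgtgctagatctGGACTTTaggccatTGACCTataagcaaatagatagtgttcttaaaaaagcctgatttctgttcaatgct
Abcc4: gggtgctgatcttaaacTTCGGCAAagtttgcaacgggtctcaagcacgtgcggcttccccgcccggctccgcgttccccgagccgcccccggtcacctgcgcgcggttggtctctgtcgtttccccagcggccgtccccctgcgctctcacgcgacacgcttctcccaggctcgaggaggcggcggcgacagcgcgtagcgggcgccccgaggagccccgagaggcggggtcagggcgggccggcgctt
Abcg5-Abcg8: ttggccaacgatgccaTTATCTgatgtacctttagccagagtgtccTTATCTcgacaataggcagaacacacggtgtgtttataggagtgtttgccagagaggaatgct

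The Slco1a1 stretch held nuclear receptor letters at -134 and -24 from the start and no HNF1, HNF4, STAT5 or C/EBP match. In Slco1b2 the same letters stood at -81, with HNF1 at -66, HNF4 at -21 and STAT5 at -206. Abcb11 had an HNF4 match at -70 and a nuclear receptor match at -56, the Abcc4 window had a single C/EBP match at -233, and the span shared by Abcg5 and Abcg8 held 2 GATA matches. Promoter entries were found for 48 of the 63 genes (58 promoters), and only the 250 bases before the start were searched. Of these 58, 11 (19.0%) held the nuclear receptor letters, against 14.0% of all 32851 promoters. HNF4 letters were in 4 (6.90%), against 3.58%, STAT5 in 5 (8.62%), against 7.02%, and C/EBP in 6 (10.3%), against 9.56%. Others were less frequent than in all promoters: HNF1 letters were in 2 (3.45%), against 6.43%, GATA factor letters in 5 (8.62%), against 9.99%, TATA box letters (TATAAA) in 7 (12.1%), against 12.4%, and CCAAT in 13 (22.4%), against 33.8%. None of these shares was tested. Such matches are frequent letters in windows of this length, and none is a shown binding site.

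Libraries held 23090837 to 34089722 counts on genes, and the values below are CPM, counts scaled to a common library size, after TMM, which sets library sizes so that most genes do not differ on average. TMM factors were 1.13 to 1.21 in fl/fl and 0.802 to 0.984 in HKO livers, and 3 counts, taken as the floor of detection, were 0.0734 to 0.152 CPM. The targeted gene, Shmt2, had 3866, 2897 and 3600 counts in the fl/fl and 587, 558 and 491 counts in the HKO livers, a log2 fold change of -2.04 (SE 0.16, edgeR adjusted p = 0.000639). An exact two-sided permutation test of its CPM gave p = 0.1, the smallest that 3 against 3 mice allow. The 3 HKO libraries held more mitochondrial counts (4.30% to 4.97%) than the fl/fl libraries (3.25% to 3.63%), and spike-in (ERCC) counts were 1.35% to 2.75% of all counts.

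In SHMT2 HKO livers 9 of 23 uptake genes and 3 of 16 efflux genes were higher with TMM scaling (1 and 0 with ERCC scaling), as the plot of fold changes by class shows. Calls were made at an adjusted p under 0.05 in edgeR (quasi-likelihood test, p-values adjusted by Benjamini-Hochberg over 16089 genes). Of the 63 transporter genes 24 (38.1%) were called, with 17 higher and 7 lower in HKO livers, where 29.0% of all genes tested were called (12.5% higher, 16.5% lower). Among the 23 uptake genes 9 rose and 1 fell, with a median log2 fold change of 0.60 over all 23. Of the 16 efflux genes 3 rose and 4 fell (median -0.06), and of the 24 other ABC genes 5 rose and 2 fell (median 0.25). The median of all genes tested was 0.03.

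The genotypes did not overlap for 34 of the 63 genes (23 higher and 11 lower in HKO, 54.0%), where 46.9% of all genes did not overlap (21.9% higher, 25.0% lower). Directions rest on the scaling, since the median gene of all genes moved by -0.42 (log2) when libraries were scaled by their totals without TMM and by -0.72 when they were scaled by ERCC counts. With ERCC scaling 27 of the 63 fold changes turned sign, 1 gene was called higher (Slco1a1) and 11 lower. How the spike-in was dosed is not given in the sources used here, and its share varied from 1.35% to 2.75% among the HKO livers. Without TMM 11 were higher and 13 lower, and with upper-quartile scaling 15 were higher and 8 lower. Over all genes the share of calls that were higher was 43.1% with TMM, 32.5% with upper quartile, 9.87% without TMM and 3.75% with ERCC scaling. Rises and falls below are therefore relative to the bulk of the transcriptome. Relative to the median gene, the uptake median stayed between 0.49 and 0.57, the efflux median between -0.16 and -0.08 and the other ABC median between 0.23 and 0.25 in all of these scalings and in DESeq2 and limma-voom. A change of scaling moves all genes by a similar amount, so these relative medians were bound to stay close.

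**Figure D1:**
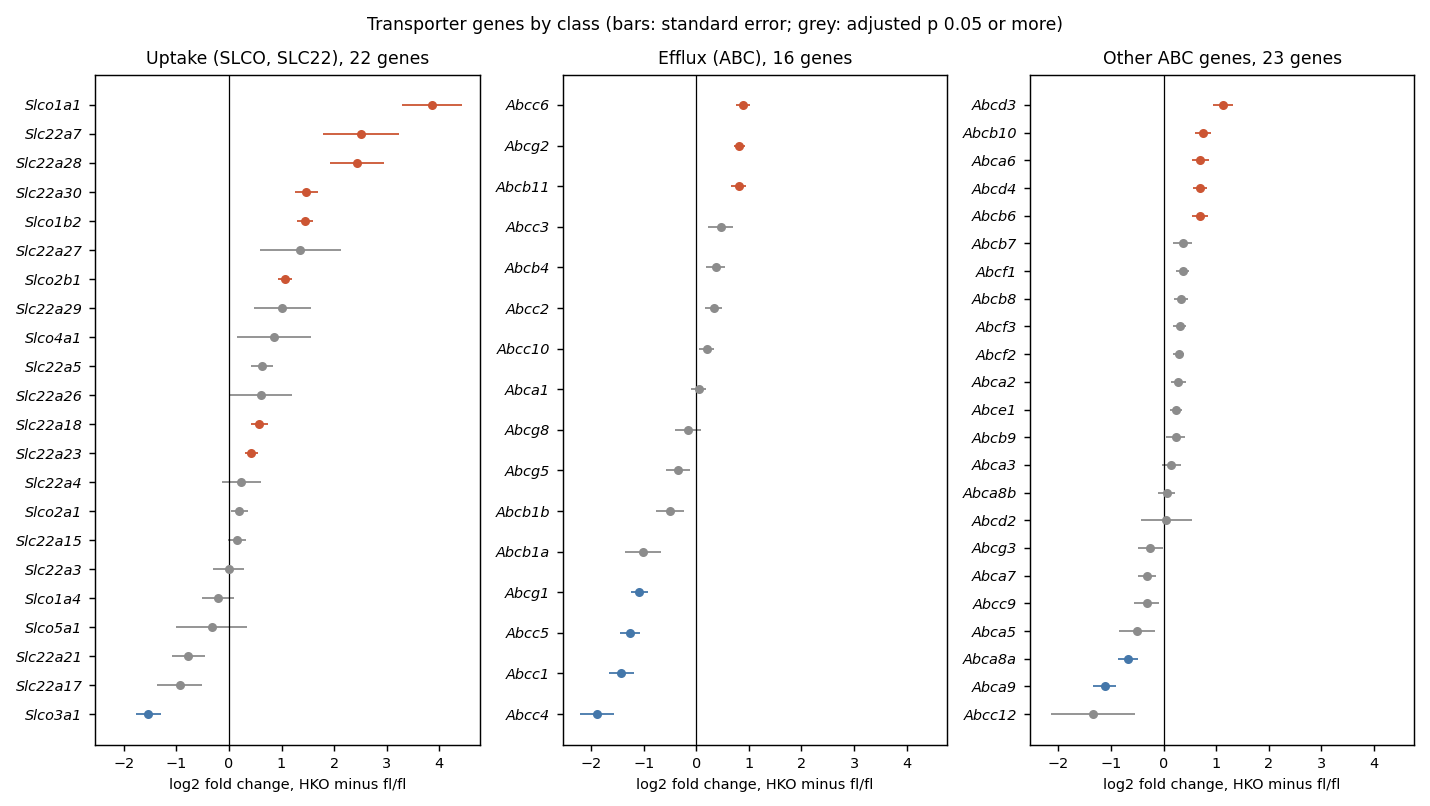
Log2 fold change (HKO minus fl/fl, x axis, TMM scaling) of 22 uptake, 16 efflux and 23 other ABC genes, one row per gene, with 2 of the 63 genes not shown, with bars for the standard error from edgeR; red and blue points are genes higher and lower at an adjusted p under 0.05, and grey points did not pass. Slco1a1 stands at 3.87 and Abcc4 at -1.88, and with ERCC scaling 27 of the 63 values change sign.

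Slco1a1 rose most of all transporter genes. It encodes an organic anion carrier of the sinusoidal membrane that in mice is known for higher expression in male liver. Its level was 19.1, 9.90 and 6.16 CPM in fl/fl mice 1, 2 and 3, and 281, 92.2 and 140 CPM in HKO mice 1, 2 and 3. The lowest HKO liver stood far above the highest fl/fl liver, although levels varied widely inside both groups. The fold change was 14.6 (log2 3.87, SE 0.57, edgeR adjusted p = 0.00395), it kept its call in all 15 alternative settings, and ERCC scaling gave 3.02. Leaving out single mice moved the log2 value between 3.31 and 4.42.

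Slco1b2 (OATP1B2), which carries unconjugated bile acids and many drugs into hepatocytes, also rose. It was read at 250, 200 and 202 CPM in fl/fl and at 589, 562 and 633 CPM in HKO livers, with tight groups far from each other (log2 1.45, SE 0.15, edgeR adjusted p = 0.00111). Per kilobase of exon its level was 44.2 CPM in fl/fl and 121 CPM in HKO livers, the highest of the SLCO genes. Slco2b1, another sinusoidal carrier of sulfated steroids, went from 103, 115 and 104 CPM to 207, 250 and 218 CPM (log2 1.07, SE 0.13, edgeR adjusted p = 0.00155). Both had no overlap between genotypes. With ERCC scaling their log2 values were 0.76 and 0.36 and neither passed, at adjusted p of 0.236 and 0.565 in edgeR.

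The neighboring gene Slco1a4, a carrier of bile acids and cardiac glycosides that responds to xenobiotic receptors, did not follow Slco1a1. Its CPM was 26.0, 38.4 and 27.6 in fl/fl and 15.2, 36.3 and 27.9 in HKO livers. The genotypes overlapped, with HKO mouse 1 below all fl/fl livers (log2 -0.21, SE 0.30, edgeR adjusted p = 0.630). Without HKO mouse 1 the value turned to 0.067. Within each liver, Slco1a1 counts were 0.223 to 0.734 of those of Slco1a4 in fl/fl mice and 2.54 to 18.6 times in HKO mice, a measure that no library scaling can move.

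Slco3a1, a widely expressed carrier of prostaglandins and other anions, was the uptake gene that fell. It had 23.8, 38.8 and 27.0 CPM in fl/fl and 9.97, 7.95 and 12.9 CPM in HKO livers, without overlap (log2 -1.53, SE 0.24, edgeR adjusted p = 0.00320), and it kept its call in all 15 settings. The remaining 3 SLCO genes, Slco2a1, Slco4a1 and Slco5a1, had log2 values from -0.33 to 0.86 and overlapped between genotypes.

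**Figure D2:**
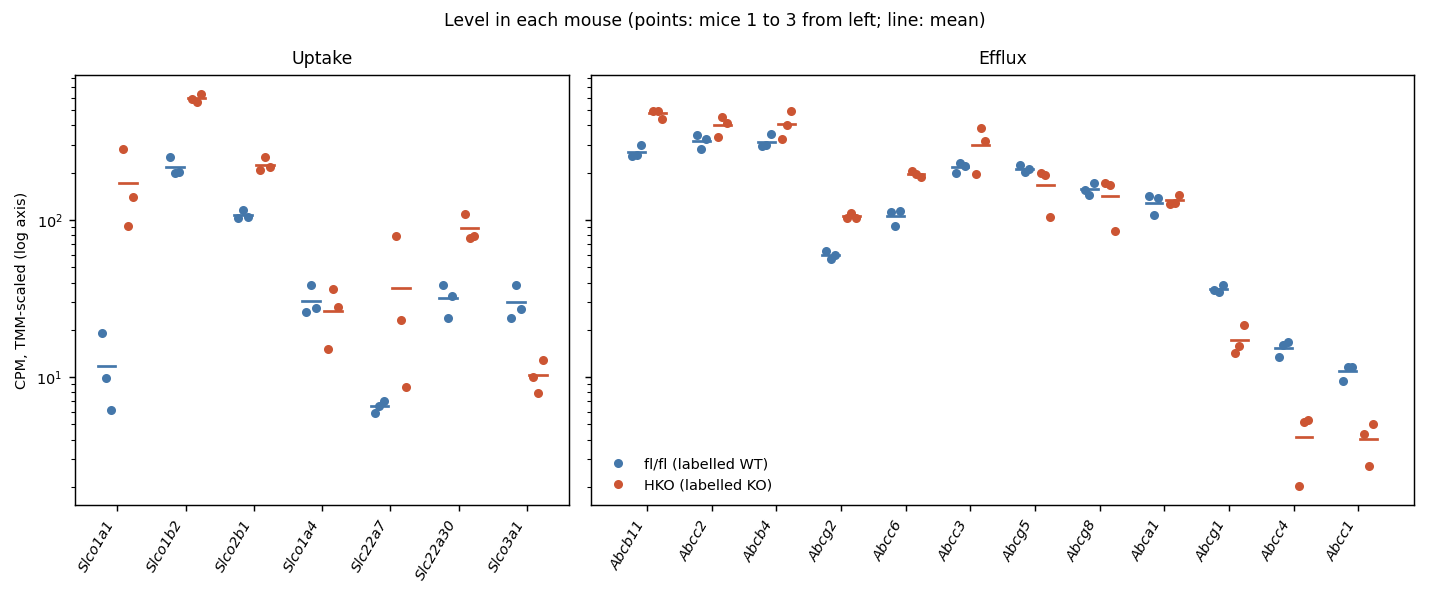
CPM in each mouse (log axis, TMM scaling) for 7 uptake genes and 12 efflux genes, with fl/fl mice in blue, HKO mice in red, mice 1 to 3 from left to right, and a line at the group mean. Slco1a1, Slco1b2, Abcb11, Abcg2 and Abcc6 do not overlap between genotypes and are higher in HKO livers, whereas Abcc4, Abcc1, Abcg1 and Slco3a1 are lower; with ERCC scaling Slco1a1 alone of the higher genes keeps its call.

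Among SLC22 genes, 6 of 15 rose and 0 fell in edgeR with TMM scaling (all genes tested: 12.5% higher, 16.5% lower). Of the 15, 1 had an unadjusted p under 0.05 with a negative fold change. DESeq2 and limma-voom also called 0 lower, whereas 2 were lower without TMM and 1 with ERCC scaling.

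Slc22a5 encodes OCTN2, the carnitine carrier. It was read at 30.5, 46.5 and 43.4 CPM in fl/fl and at 46.2, 72.5 and 67.2 CPM in HKO livers, where HKO mouse 1 lay at the fl/fl level (log2 0.63, SE 0.21, edgeR adjusted p = 0.0570). Without that mouse it passed, at a log2 value of 0.80 (edgeR adjusted p = 0.0115). Stretches of 75 bases shared with Slc22a21, a close paralog, made up 17.1% of its transcript, so that a share of its reads may have been left uncounted or divided.

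Of the 6 SLC22 genes that carry organic anions, all 6 had positive log2 values with TMM scaling (0.60 to 2.51; Slc22a26 was negative with ERCC scaling) and 3 rose. Slc22a7 (OAT2), which exchanges glutamate and cyclic nucleotides with organic anions, had 5.90, 6.58 and 7.05 CPM in fl/fl and 79.3, 23.2 and 8.66 CPM in HKO livers. HKO mouse 1 stood far above the other HKO mice, and HKO mouse 3 was only slightly above the fl/fl livers. The log2 fold change was 2.51 (SE 0.73, edgeR adjusted p = 0.0397), it was 1.28 without HKO mouse 1, and the call held in 8 of 15 settings. Leaving out fl/fl mouse 1, 2 or 3 lost it, at edgeR adjusted p values of 0.124, 0.144 and 0.122.

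Slc22a30 and Slc22a28 belong to a rodent run of anion transporter genes on chromosome 19. Slc22a30 had 38.7, 23.6 and 33.0 CPM in fl/fl and 109, 76.4 and 79.4 CPM in HKO livers, without overlap (log2 1.47, SE 0.21, edgeR adjusted p = 0.00267). Slc22a28 was lower, at 1.71, 1.17 and 1.51 CPM against 14.9, 4.81 and 4.17 CPM. It was again highest in HKO mouse 1 (log2 2.43, SE 0.51, edgeR adjusted p = 0.0104), and 1.60 without that mouse. Their values are uncertain, since 44.8% of the 75-base windows of Slc22a28 and 26.7% of those of Slc22a30 also occur in other genes. The reads were paired and longer than these windows, so the shares do not measure how many reads were ambiguous. Slc22a26, Slc22a27 and Slc22a29 of the same run had 0.975 to 5.15 CPM on average and overlapped between genotypes.

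Slc22a18 and Slc22a23, whose substrates are less defined, rose slightly (log2 0.58 and 0.43), and each lost its call when fl/fl mouse 1, 2 or 3 or HKO mouse 2 was left out, with edgeR adjusted p values from 0.0538 to 0.120; Slc22a23 also lost it without HKO mouse 3 (edgeR adjusted p = 0.0550). Both turned negative with ERCC scaling (log2 -0.20 and -0.27), and neither passed without TMM (log2 0.14 and 0.0074, edgeR adjusted p of 0.448 and 0.972) or with upper-quartile scaling (edgeR adjusted p of 0.0535 and 0.0635). Slc22a3, a cation carrier, had a mean of 9.76 CPM in both genotypes, but 9.31% of its exon bases lie opposite Plg, a plasminogen gene with 29164 to 63412 counts, and the strand setting of the counting is not stated. The carnitine and ergothioneine carriers Slc22a21 and Slc22a4 and the orphan members Slc22a15 and Slc22a17 did not pass.

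On the efflux side, the canalicular pumps split: 2 of 8 rose (Abcb11 and Abcg2) and 0 fell in edgeR with TMM scaling (all genes tested: 12.5% higher, 16.5% lower). Of the 8, 1 had an unadjusted p under 0.05 and a negative value. DESeq2 and limma-voom each called 1 lower (Abcb1a), and without TMM 3 were lower. Abcb11, the bile salt export pump and the main exit of bile acids into bile, was read at 257, 261 and 300 CPM in fl/fl and at 494, 497 and 442 CPM in HKO livers. The groups lay well apart (log2 0.81, SE 0.14, edgeR adjusted p = 0.00516). Abcg2, a pump for sulfate conjugates, urate and porphyrins, went from 63.6, 56.2 and 60.2 CPM to 103, 112 and 103 CPM, also without overlap (log2 0.82, SE 0.11, edgeR adjusted p = 0.00212). Both lost their calls by ERCC scaling, where the log2 values were 0.06 and 0.09 (edgeR adjusted p of 0.918 and 0.893).

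Abcc2 (MRP2) exports bilirubin and glutathione conjugates. It had 349, 285 and 326 CPM in fl/fl and 336, 456 and 417 CPM in HKO livers, with HKO mouse 1 inside the fl/fl range (log2 0.33, SE 0.17, edgeR adjusted p = 0.168). Abcb4, which moves phosphatidylcholine into bile, had 297, 298 and 351 CPM against 329, 400 and 497 CPM, with overlap (log2 0.37, SE 0.18, edgeR adjusted p = 0.162). Neither passed in any of the 15 settings, and without TMM both log2 values were slightly negative (-0.091 and -0.027).

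Abcg5 and Abcg8 form the heterodimer that secretes sterols into bile. Abcg5 was read at 223, 203 and 210 CPM in fl/fl and at 200, 193 and 105 CPM in HKO livers, all 3 of which lay below the fl/fl livers (log2 -0.35, SE 0.23, edgeR adjusted p = 0.298). Abcg8 had 155, 145 and 173 CPM against 172, 167 and 84.6 CPM and overlapped (log2 -0.16, SE 0.25, edgeR adjusted p = 0.676). HKO mouse 3 was the lowest of the 6 livers for both genes, and without it the log2 value of Abcg5 was -0.13 and that of Abcg8 0.079. Abcg5 was called lower without TMM (log2 -0.81, edgeR adjusted p = 0.0117) and with ERCC scaling (log2 -1.24, edgeR adjusted p = 0.0380), and Abcg8 without TMM (log2 -0.62, edgeR adjusted p = 0.0422). The starts lie 110 bases apart on opposite strands, and counts of Abcg5 per count of Abcg8 were 1.35 ± 0.12 (SD, n = 3) in fl/fl and 1.19 ± 0.047 (SD, n = 3) in HKO livers, with overlap.

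The multidrug pumps Abcb1a and Abcb1b, which export hydrophobic drugs, were read at low level. Abcb1a had 13.8, 21.0 and 17.3 CPM in fl/fl and 4.29, 9.01 and 12.5 CPM in HKO livers, without overlap, but the spread was wide (log2 -1.01, SE 0.35, edgeR adjusted p = 0.0622). It passed in 8 of 15 settings, DESeq2 among them (adjusted p = 0.0206), and without HKO mouse 1 or HKO mouse 3 (edgeR adjusted p of 0.0462 and 0.0208). Abcb1b had 4.26, 4.18 and 3.94 CPM against 2.72, 2.08 and 3.94 CPM, and HKO mouse 3 reached the fl/fl level (log2 -0.50, SE 0.27, edgeR adjusted p = 0.199). Without that mouse it was -0.81 (edgeR adjusted p = 0.0387). Windows of 75 bases that also occur in Abcb1b or Abcb4 made up 12.5% of Abcb1a. Those that also occur in Abcb1a or Abcb4 made up 8.13% of Abcb1b.

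Of 6 ABCC genes that pump to blood or work generally at the cell surface, Abcc6 rose while Abcc4, Abcc1 and Abcc5 fell (all genes tested: 12.5% higher, 16.5% lower). Abcc6 mediates hepatic ATP release, a source of plasma pyrophosphate. Its CPM was 112, 91.2 and 114 in fl/fl and 206, 196 and 188 in HKO livers, without overlap (log2 0.89, SE 0.13, edgeR adjusted p = 0.00291), and ERCC scaling left 0.15 (edgeR adjusted p = 0.811). Abcc3 (MRP3), which returns glucuronides and bile acids to blood, had 200, 231 and 222 CPM against 196, 383 and 320 CPM. HKO mouse 1 was the lowest of all 6 livers (log2 0.46, SE 0.23, edgeR adjusted p = 0.174), and without it Abcc3 passed (log2 0.69, edgeR adjusted p = 0.0109).

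Abcc4 (MRP4), a sinusoidal pump for bile acids with glutathione and for cyclic nucleotides, fell most. It had 13.4, 16.1 and 16.8 CPM in fl/fl and 2.04, 5.17 and 5.35 CPM in HKO livers, a level 3.69-fold lower (log2 -1.88, SE 0.33, edgeR adjusted p = 0.00517). Abcc1 (MRP1), a pump of glutathione conjugates and leukotrienes, went from 9.49, 11.6 and 11.5 CPM to 4.33, 2.73 and 5.04 CPM (log2 -1.42, SE 0.24, edgeR adjusted p = 0.00455). Abcc5 (MRP5), which carries organic anions and cyclic nucleotides, went from 28.4, 24.4 and 25.9 CPM to 11.1, 8.05 and 13.6 CPM (log2 -1.26, SE 0.19, edgeR adjusted p = 0.00307). In each of these genes all 3 HKO livers lay below all 3 fl/fl livers, and each kept its call in all 15 settings.

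The sterol exporters of the cell surface differed from each other. Abca1, which loads cholesterol and phospholipid onto apolipoprotein A-I, was read at 142, 107 and 138 CPM in fl/fl and at 126, 129 and 144 CPM in HKO livers, with overlap (log2 0.04, SE 0.14, edgeR adjusted p = 0.842). Abcg1, which passes cholesterol to HDL and is high in macrophages, fell from 36.1, 35.0 and 38.4 CPM to 14.3, 15.8 and 21.5 CPM, without overlap (log2 -1.09, SE 0.16, edgeR adjusted p = 0.00305). It was called lower in all 15 settings.

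Uptake and efflux can also be set against each other inside each liver, where no scaling factor enters (see the plot of ratios by mouse). With TMM scaling, summed uptake CPM was 984 ± 25.7 (SD, n = 3) in fl/fl and 2052 ± 105 (SD, n = 3) in HKO livers. Summed efflux CPM, also with TMM scaling, was 1916 ± 111 in fl/fl and 2397 ± 187 in HKO livers. Both sums move with the scaling chosen, whereas their ratio does not. The uptake sum was 0.501 to 0.538 of the efflux sum in fl/fl and 0.811 to 0.954 in HKO livers, so that the groups did not overlap. Slco1b2 made up 22.1% of the uptake sum in fl/fl and 29.1% in HKO livers, and the share of Slco1a1 went from 1.20% to 8.31%. Counts of Slco1b2 per count of Abcc4 were 12.0 to 18.6 in fl/fl and 109 to 289 in HKO livers. These sums weigh abundant genes most, and no test of the classes against each other was run.

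**Figure D3:**
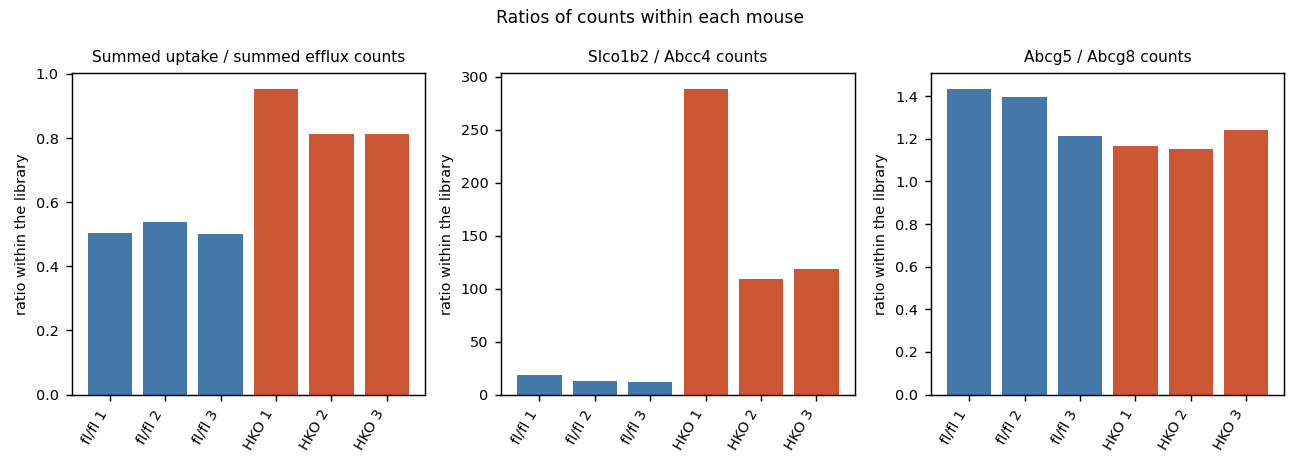
Ratio of counts inside each library (y axis, no unit) for summed uptake over summed efflux genes, Slco1b2 over Abcc4, and Abcg5 over Abcg8, one bar per mouse, fl/fl in blue and HKO in red. The first ratio is 0.501 to 0.538 in fl/fl and 0.811 to 0.954 in HKO livers and does not depend on library scaling.

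Inside the cell, 3 of 6 mitochondrial and lysosomal ABC genes and 1 of 3 peroxisomal genes rose, where 12.5% of all genes tested did. The log2 values of all 9 of these ABC genes were positive with TMM scaling, whereas 7 of the 9 were negative with ERCC scaling. Abcd3 (PMP70), which imports branched fatty acids and bile acid precursors into peroxisomes, had 260, 261 and 281 CPM in fl/fl and 450, 711 and 591 CPM in HKO livers (log2 1.13, SE 0.19, edgeR adjusted p = 0.00433). The groups lay wide apart. ERCC scaling left 0.43 (edgeR adjusted p = 0.476). Abcd2, another peroxisomal gene, had 15.1, 15.7 and 17.3 CPM in fl/fl and 5.31, 25.8 and 18.9 CPM in HKO livers (log2 0.053, SE 0.48, edgeR adjusted p = 0.945). The sign of its log2 value turned in 7 of 15 settings.

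Abcb10, a carrier of the inner mitochondrial membrane with a role in heme synthesis, had 19.2, 16.9 and 17.0 CPM in fl/fl and 35.3, 25.7 and 28.2 CPM in HKO livers (log2 0.75, SE 0.15, edgeR adjusted p = 0.00811). Abcb6, which carries porphyrins, went from 23.3, 24.0 and 24.1 CPM to 37.2, 46.3 and 32.0 CPM (log2 0.69, SE 0.15, edgeR adjusted p = 0.0109), although 55.2% of its exon bases are also annotated to Gm29253, a transcript with 0 to 14 counts. Abcd4, which helps vitamin B12 leave the lysosome, rose from 10.4, 10.7 and 9.97 CPM to 15.4, 17.6 and 17.4 CPM (log2 0.70, SE 0.13, edgeR adjusted p = 0.00646). None of these 3 genes overlapped between genotypes, and each lost its call without TMM and with ERCC scaling, where Abcb10 and Abcb6 had log2 values of -0.0032 and -0.085. The 4 soluble genes Abce1, Abcf1, Abcf2 and Abcf3, which act in translation, had log2 values of 0.23 to 0.36. Of these 0 passed in edgeR, 3 had an unadjusted p under 0.05, and DESeq2 called 1 and limma-voom 0 higher. With TMM scaling HKO livers lay above fl/fl livers without overlap in all 4, as in 21.9% of all genes tested. Their sign rests on the scaling: Abce1, Abcf1, Abcf2 and Abcf3 were at -0.19, -0.066, -0.14 and -0.13 without TMM and at -0.47, -0.37, -0.44 and -0.47 with ERCC scaling.

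Of 8 other ABCA genes, thought to handle membrane lipids, 1 rose and 2 fell (all genes tested: 12.5% higher, 16.5% lower). These 3 are neighbors on chromosome 11. Abca6 went from 34.6, 37.2 and 44.3 CPM in fl/fl to 53.8, 59.0 and 75.3 CPM in HKO livers, whereas Abca9 went from 11.3, 13.1 and 14.2 CPM to 4.67, 5.32 and 7.75 CPM and Abca8a from 48.8, 75.4 and 63.6 CPM to 41.4, 32.2 and 43.4 CPM. In none of the 3 genes did the genotypes overlap. The log2 values were 0.70 (SE 0.16, edgeR adjusted p = 0.0146) for Abca6, -1.12 (SE 0.22, 0.00766) for Abca9 and -0.68 (SE 0.18, 0.0268) for Abca8a. Abca6 lost its call without fl/fl mouse 1 or 2, and Abca8a without fl/fl mouse 2 or 3 or HKO mouse 2, with edgeR adjusted p values of up to 0.063 and 0.0957. Abca6 also lost its call without TMM (log2 0.30, edgeR adjusted p = 0.297) and with ERCC scaling (log2 0.069, edgeR adjusted p = 0.921). Abca9 kept it in all 15 settings.

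Genes that sit side by side did not always move alike (see the plot of neighboring genes). Slco1a1 and Slco1a4 share a strand on chromosome 6 but had log2 values of 3.87 and -0.21. On chromosome 5, Abcb1a and Abcb1b had negative values and Abcb4 a positive one, of which none passed. On chromosome 19 all 5 genes from Slc22a26 to Slc22a30 were positive with TMM scaling, with 2 called, and Slc22a26 was negative with ERCC scaling.

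**Figure D4:**
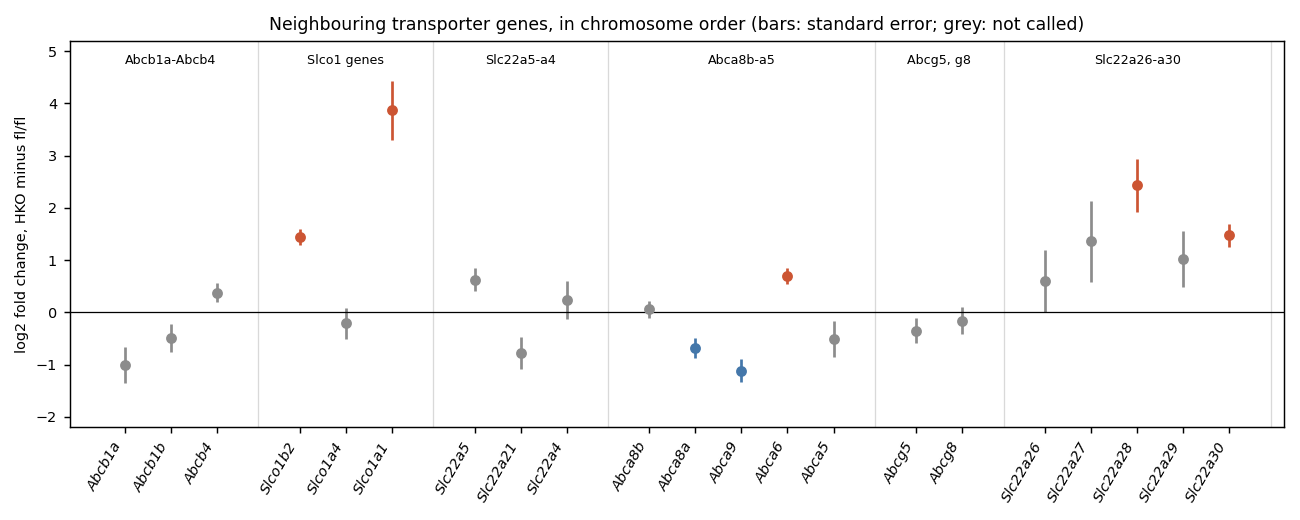
Log2 fold change (HKO minus fl/fl, y axis, TMM scaling) of transporter genes in 6 groups that lie near each other, in chromosome order from left to right, with bars for the standard error and red, blue and grey for higher, lower and not called. In the Abca8b to Abca5 run on chromosome 11, Abca6 is higher and Abca8a and Abca9 are lower; under ERCC scaling Slco1a1 is the only one of the red points still called.

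Other transport genes, from a separate list of 20 that was not confined to hepatocyte genes, were counted in the same fit. Of 19 tested, 10 rose and 2 fell (Cftr and Tap2), with a median log2 value of 0.54. Over all genes tested, 12.5% were higher and 16.5% lower. Slc10a1 (NTCP), the sodium-coupled bile acid carrier, had means of 78.2 and 359 CPM (log2 2.20, SE 0.17, edgeR adjusted p = 0.000639). The cation extruder Slc47a1 was at 0.93 and the glycerol channel Aqp9 at 0.94, and Cftr, a chloride channel of bile duct cells, at -3.67. Slc51a, a subunit of the basolateral bile acid exporter, was listed at 0 in all libraries. Without fl/fl mouse 1 or 2 the count fell from 12 to 7, and it was 2 with ERCC scaling.

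Among 20 transcription factors known to regulate such genes, 7 rose and 0 fell in edgeR (all genes tested: 12.5% higher, 16.5% lower). Of the 20, 0 had a negative fold change at an unadjusted p under 0.05. DESeq2 called 10 higher and 0 lower and limma-voom 8 and 0. Without TMM 3 were higher and 1 lower, and with ERCC scaling 0 passed in edgeR, with 1 lower at an unadjusted p under 0.05. Nr1i3 (CAR) had a log2 value of 1.77, Ppara 1.10, Nr1h4 (FXR), the bile acid receptor, 0.70 and Cebpa 0.72. Levels of these RNAs do not measure the activity of the factors.

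The libraries are of whole liver, so fewer cells of a type and less RNA per cell cannot be told apart. Markers of other liver cells moved with genotype. The summed CPM of 10 cholangiocyte markers was 1055 to 1328 in fl/fl and 180 to 327 in HKO livers, with 9 of 10 lower and 1 higher. Most of that sum was Spp1, at 876, 944 and 792 CPM in fl/fl and 104, 105 and 215 CPM in HKO mice 1, 2 and 3. The 12 stellate and fibroblast markers summed to 1428 to 1522 against 385 to 924, with 6 lower and 1 higher. The 11 lymphocyte markers summed to 22.9 to 27.7 against 8.15 to 8.81 (5 lower). Abcc4, Abcc1, Abcc5, Abcg1, Slco3a1 and Abca9 fell with these lists, and the part of such cells in those results was not tested.

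For 12 macrophage markers the sums overlapped, at 449 to 611 in fl/fl and 452 to 557 CPM in HKO livers. Of the 12, 3 were higher (Clec4f, Vsig4 and Timd4) and 5 lower (C1qa, Csf1r, Cd68, Itgam and Trem2). With ERCC scaling 2 of the 12 were higher and 5 lower. Adgre1, Cd5l, Marco and Gpnmb did not pass. Without fl/fl mouse 3 or HKO mouse 2, 5 of the 12 passed. The 10 sinusoidal endothelial markers summed to 321 to 364 against 357 to 464, with 3 higher and 1 lower (0 and 1 with ERCC scaling). The 10 hepatocyte markers summed to 56348 to 68274 CPM in fl/fl and 70063 to 108203 CPM in HKO livers. Most of that sum was Alb, at 34830, 34486 and 43319 CPM in fl/fl and 57321, 65656 and 42706 CPM in HKO mice 1, 2 and 3. Alb overlapped between genotypes and was not called (edgeR adjusted p = 0.132). The median log2 value of the 10 markers was 0.68, with 4 higher and 0 lower by edgeR (1 lower at an unadjusted p under 0.05), 4 and 0 by limma-voom, 7 and 1 by DESeq2, and 1 called in all when fl/fl mouse 1, 2 or 3 or HKO mouse 2 was left out. With ERCC scaling 0 were higher and 1 lower, and without TMM 1 was higher and 1 lower. Slco1b2, Abcb11, Abcc6 and the other genes that rose moved with this list under TMM scaling, and its part in their rise was not tested. No marker of these lists except Ncr1, a lymphocyte gene, was at 0 in any library.

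**Figure D5:**
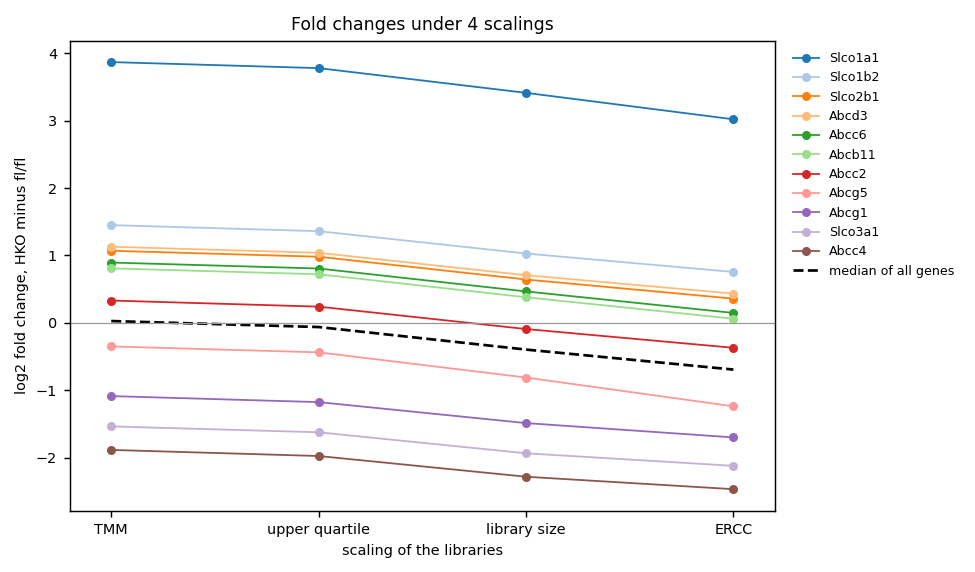
Log2 fold change (HKO minus fl/fl, y axis) of 11 transporter genes under 4 ways of scaling the libraries (x axis), with a dashed line for the median of all genes tested. The median falls by 0.72 from TMM to ERCC scaling and all 11 lines fall with it, so that at ERCC scaling Slco1a1 stands at 3.02, Abcb11 at 0.06 and Abcc4 at -2.47.

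The order of the 11 plotted genes was the same in all 4 scalings, which follows since a scaling moves all genes by a similar amount. Slco1a1, Slco3a1, Abcc4, Abcc1, Abcc5, Abcg1 and Abca9 were called in all 15 alternative settings, and the other 17 of the 24 called genes lost the call in at least 1 setting.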

How the data were processed

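Liver RNA from 3 SHMT2 fl/fl and 3 SHMT2 HKO mice was measured by RNA-seq. Libraries were made with an NEBNext Ultra kit. Per the submitters' processing notes, reads were trimmed with Trimmomatic 0.36, aligned with STAR 2.5.2b and counted with featureCounts of Subread 1.5.2 on GRCm38 (mm10). The values deposited by the authors are whole-number counts per Ensembl gene, without normalization. The strand setting and the treatment of overlapping genes are not given in the sources used here. The study's own tables of fold changes were not used.

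ERCC spike-ins (92 entries) were kept out of library sizes and tests, and 345 IDs without a symbol held 0.0416% of gene counts. Low genes were removed by filterByExpr, and the rest were scaled by TMM and tested between genotypes (two-sided) with robust quasi-likelihood fits in edgeR 4.0.16 (limma 3.58.1, R 4.3.3), with Benjamini-Hochberg adjustment over 16089 genes and a threshold of 0.05. SE is the absolute log2 fold change divided by the square root of F. The authors' own analysis used limma-voom, which was run as an alternative. The 15 alternatives were DESeq2 1.42.0, limma-voom, 3 scalings, 2 filters, no robust dispersion, a replicate block and each mouse left out. The scripts were tested on simulated data. A count of 3 was taken as the floor, which covers counting error only. CPM per kilobase used exon lengths of GENCODE M21, whereas the authors counted on Ensembl 79. Promoters came from RefSeq (GRCm38.p6).

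Named genes were 20 fixed transporters and, in each class and direction, up to 6 genes with the largest log2 change among those called, not overlapping and at 1 CPM or more on average. Slc22a18, Slc22a23, Slc22a3 and other members named only for their place were added after their values were seen. Of the 63 genes, 2 count in the totals but are not reported here by name. Transporters and lists of markers, transport genes and transcription factors were chosen with earlier results of these data known, and Cftr and Hnf4a are each on more than one list.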

Additional observations from a re-analysis of the deposited data

How the results depend on the processing

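Counts of called genes depended most on the spike-in scaling and on single mice. With ERCC scaling 2877 of all genes passed (4663 with TMM), 12 transporter genes (24), 3 uptake genes (10) and 3 other ABC genes (7), and without TMM 4 other ABC genes passed. Leaving out single mice gave 2433 to 5580 of all genes, the lowest without fl/fl mouse 3, and 2694, 2555 and 3037 without fl/fl mouse 1, fl/fl mouse 2 and HKO mouse 2. It gave 19 to 31 transporter, 7 to 14 uptake, 6 to 10 efflux and 5 to 12 other ABC genes, the last 12 without HKO mouse 3. Signs turned for 27 of the 63 transporter genes with ERCC scaling, 4 of them called (Abcb10, Abcb6, Slc22a18 and Slc22a23), and for 18 without TMM, none of them called with TMM. Among these were Slc22a5 (-0.016), Abcc2 (-0.37), Abcb4 (-0.25), Abcc3 (-0.20), Abcb10 (-0.0032), Abcb6 (-0.085), Slc22a18 (-0.20), Slc22a23 (-0.27) and Abca1 (-0.65) with ERCC scaling, and Abcc2 (-0.091), Abcb4 (-0.027) and Abca1 (-0.37) without TMM. Abca1 was also -0.045 with upper-quartile scaling. With single mice left out, Abca1 ranged from -0.073 to 0.12 (negative without fl/fl mouse 2 or HKO mouse 3), Slco1a4 from -0.51 to 0.067 (positive without HKO mouse 1) and Abcg8 from -0.32 to 0.079 (positive without HKO mouse 3). Beyond the scaling itself, the cause was not tested. Mice with the same number did not deviate together (correlations -0.0459, 0.0125 and -0.0766 over genes). Mice of unlike number reached 0.0808. The main fit therefore did not pair them, but such small values cannot show whether mice of like number shared a litter or cage. With a replicate block 3584 of all genes and 22 transporter genes passed (8 uptake, 8 efflux, 6 other ABC), and Abca8a, Slc22a7, Slc22a18 and Slc22a23 lost their calls.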
